A study of Mus musculus with 6 samples.

Results

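The genes described here encode the machinery of DNA replication and of the entry into S phase. They comprise 36 genes chosen by symbol, all of them present among the 21983 gene symbols of the count table and all 36 abundant enough to be tested. Whole-liver RNA came from 6 C57BL/6 mice whose drinking water contained thioacetamide (TAA, a hepatotoxin that causes fibrosis) at 400 mg/L over 16 weeks. The 3 control mice (numbers 42, 83 and 90) were Prmt1f/f, that is, they carried a floxed allele of the arginine methyltransferase gene Prmt1 and no Cre was named for them. The 3 knockout mice (49, 82 and 88) were Lrat-Cre; Prmt1f/f: Cre is driven from Lrat, which in liver is expressed mainly by hepatic stellate cells. All 6 mice therefore shared the floxed allele and the toxin, and the labels give an age of 10 weeks and no sex. Prmt1 itself had 38.9, 44.4 and 49.8 CPM (counts scaled per library with TMM factors, the unit of all levels given here) in control mice 42, 83 and 90 and 35.8, 24.7 and 25.8 CPM in knockout mice 49, 82 and 88. It thus stood at 64.8% of its control level (log2 fold change -0.62, SE 0.20, edgeR adjusted p = 0.347), with no overlap between the genotypes; whole liver also contains the Prmt1 transcripts of cells without Cre.

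Replication is prepared in G1 phase, when the origin recognition complex, Cdc6 and Cdt1 load the ring-shaped Mcm2 to Mcm7 helicase onto DNA. At the start of S phase Cdc45, the GINS complex and Mcm10 activate the helicase, and polymerases, the sliding clamp PCNA and its RFC loader copy the strands. Most of these genes are targets of E2F transcription factors, which cyclin D and cyclin E kinases release from the retinoblastoma protein. In healthy adult liver nearly all hepatocytes are out of the cell cycle, and injury brings hepatocytes, bile duct cells and non-parenchymal cells back into it. Each log2 fold change given here sets knockout against control.

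Because E2F factors act through short promoter words, the stretches holding such words are shown for the 4 genes with the smallest p among those that have one. The words searched were TTTCCCGC, TTTGGCGC, TTTCGCGC and TTTGCCGC on either strand, in windows from 250 bases before to 50 bases after each transcript start (RefSeq, GRCm38.p6). Capitals mark the words, which overlap by 4 bases on opposite strands in Mcm5 and, at the upstream site, in Mcm6.
Uhrf1 (chr17:56304108-56304155, plus strand): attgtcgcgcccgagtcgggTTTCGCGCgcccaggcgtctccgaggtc
Mcm6 (chr1:128359725-128359835, minus strand): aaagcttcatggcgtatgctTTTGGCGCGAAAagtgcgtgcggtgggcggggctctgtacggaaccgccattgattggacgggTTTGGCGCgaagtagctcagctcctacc
Mcm3 (chr1:20820265-20820294, minus strand): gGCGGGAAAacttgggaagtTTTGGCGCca
Mcm5 (chr8:75109336-75109387, plus strand): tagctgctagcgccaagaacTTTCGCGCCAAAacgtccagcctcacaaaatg
The words lay before the start in Uhrf1, Mcm6 and Mcm5 and in the first transcribed bases in Mcm3. For Uhrf1 the table held 2 windows, and the word lay in the downstream of them. A window was listed for 29 of the 36 genes; Mcm4, Gins1, Gins2, Ccnd1, Ccne2, Rfc2 and Pole had none. An E2F word was present for 12 of those 29 genes (41.4%), against 463 of 10325 tested genes with a window (4.48%) and 744 of all 32851 windows (2.26%). The CCAAT word bound by NF-Y was present for 19 of 29 (65.5%, against 42.8% of tested genes). The words TTTGAA or TTCGAA (the CHR element of G2/M genes) were present for 7 of 29 (24.1%, against 16.6%). The median log2 fold change was -0.93 in the 12 genes with an E2F word and -0.50 in the 17 with a window but no such word. Outside the 36 genes, the 451 tested genes with an E2F word had a median of -0.06, and the 9845 without had -0.02. A match is a description of letters, not of a bound site.

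Replication genes mostly had negative fold changes in the knockout livers. A negative fold change was fitted for 34 of the 36 genes, against 52.7% of the 13153 genes tested, and their median log2 fold change was -0.69, against -0.02 for all genes. In 23 of the 36 genes (63.9%) the highest knockout mouse lay under the lowest control mouse, an arrangement found in 7.95% of all genes; the opposite arrangement occurred in 0 of the 36 and in 8.94% of all genes. None passed edgeR's quasi-likelihood test at a Benjamini-Hochberg adjusted p under 0.05, as 0% of all genes did; adjusted p ran from 0.183 to 0.89 among the 36. At an unadjusted p under 0.05 edgeR gave 17 lower and 0 higher, against 5.95% and 5.06% of all genes. The 17 became 11 without mouse 82, 12 without mouse 83 or 88 and 23 without mouse 49, when 3.95%, 3.76%, 5.25% and 6.58% of all genes were lower at that p, in the order 82, 83, 88 and 49. DESeq2 called 7 at an adjusted p under 0.05, all lower (0.936% of all genes were called lower and 0.875% higher): Mcm2, Mcm3, Mcm4, Mcm5, Mcm6, Rrm2 and Uhrf1. With limma-voom 0 of the 36 passed (0% of all genes). With a weight per library it called 10, all lower, against 1.96% of all genes, the others being Cdc6, Gins2 and Rrm1. A log2 fold change under -1 was fitted for 9 of the 36 and for 4.71% of all genes. In bulk RNA fewer cells of a type and less RNA per cell cannot be told apart.

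**Figure D1:**
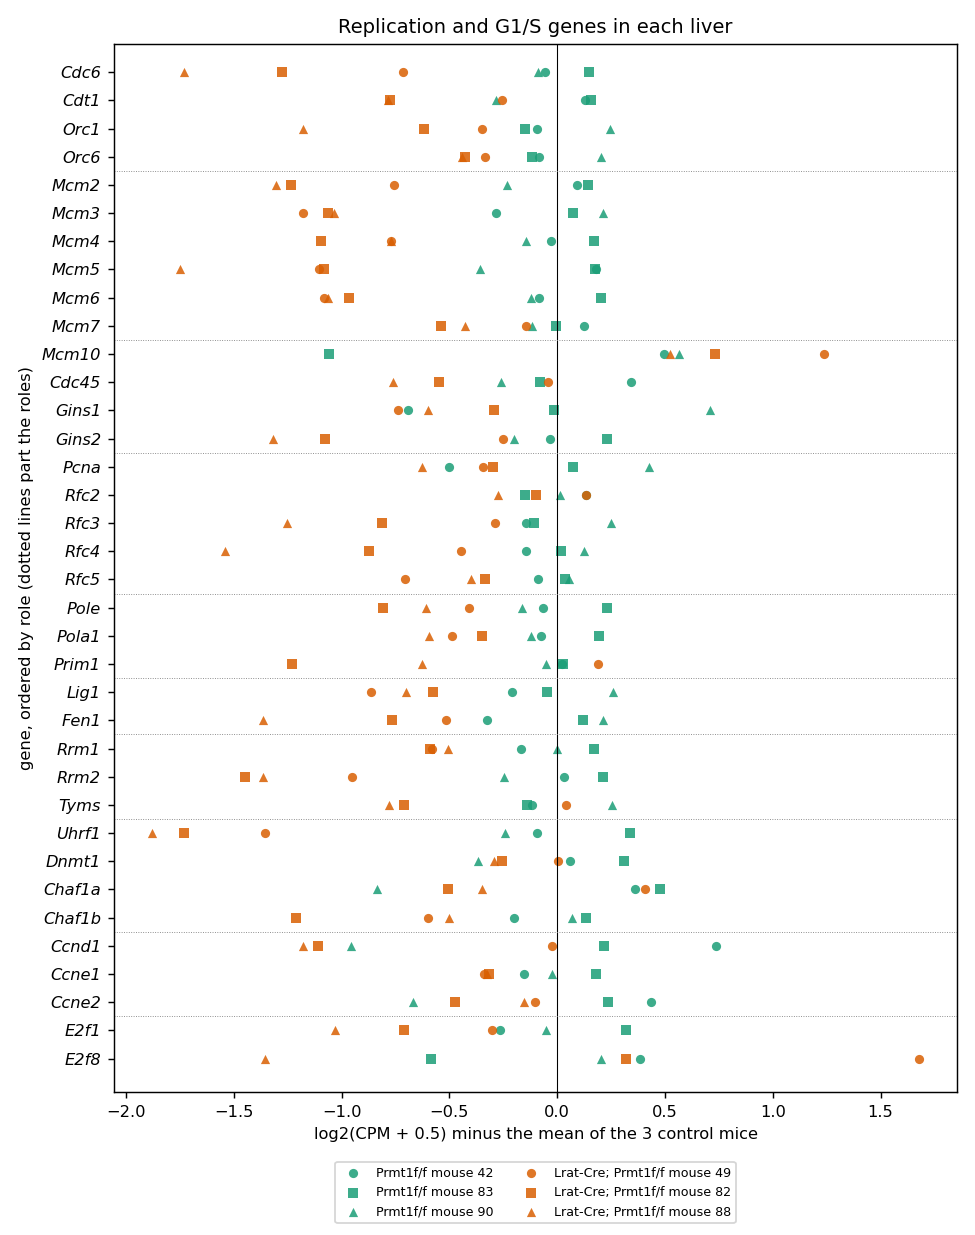
Log2(CPM + 0.5) of each of the 36 genes minus the mean of the 3 control mice, with 1 point per mouse (green control, orange knockout; circles, squares and triangles as in the legend) and dotted lines between roles. The 3 knockout mice lie left of all control mice in 23 genes, an arrangement found in 7.95% of all genes tested. Mcm10 and E2f8 are the genes whose fitted fold change is positive.

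The knockout mice did not depart equally. The mean of the 36 genes lay 0.34 log2 under the control mean in mouse 49, at -0.70 in mouse 82 and at -0.84 in mouse 88, whereas the control mice lay between -0.05 and 0.06. Mouse 88 was the lowest of the 6 mice in 19 of the 36 genes, mouse 82 in 7 and mouse 49 in 6. Control mouse 83 was the highest in 16 genes, mouse 90 in 11 and mouse 42 in 6, and knockout mouse 49 in the remaining 3 (Mcm10, E2f8 and Prim1). Over all genes the counts of mice 82 and 88, which share a genotype and are both numbered over 80, differed least. Those of 42 and 49, which differ in genotype and are both numbered under 50, differed next least. The next closest pair, the controls 42 and 83, spans low and high mouse numbers. Mouse 83 differed less from mice 42 and 49 than from the other mice over 80, and mouse 90 differed widely from all. Whether the mice fall into groups by number was not tested. Mice were also compared by number (under 50, over 80), which the labels do not call a batch. On that basis, 30 of the 36 genes were lower in knockout mouse 49 than in control mouse 42 (49.2% of all genes), and in 30 both knockout mice over 80 lay under both control mice over 80 (27.1% of all genes).

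Among the licensing genes Cdc6, the ATPase that recruits the helicase to origins, differed most. It had 2.93, 3.46 and 2.86 CPM in control mice 42, 83 and 90, and 1.67, 0.974 and 0.576 CPM in knockout mice 49, 82 and 88. The groups were separate and the knockout mean was 34.9% of the control mean (log2 fold change -1.51, SE 0.44, edgeR adjusted p = 0.323). Orc1, the ATPase subunit of the origin recognition complex, was the scarcest of the 36 genes, with 62 counts over the 6 mice. Its counts were 13, 16 and 15 in control and 10, 6 and 2 in knockout mice, which left a wide interval (-1.19, 95% interval -2.53 to 0.16). Orc6, another subunit, averaged 7.08 ± 0.957 CPM in control livers and 5.20 ± 0.234 CPM in knockout livers (SD, n = 3), separate groups with a small difference (-0.44, SE 0.24). Cdt1, which brings the helicase to origins with Cdc6, had 9.40, 9.61 and 6.95 CPM in control and 7.08, 4.80 and 4.76 CPM in knockout mice. Its groups overlapped, because knockout mouse 49 lay just over control mouse 90 (-0.64, SE 0.27).

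The helicase subunits Mcm2 to Mcm6 stood at 38.7% to 52.8% of their control levels, with separate groups in each. Mcm6 had 26.9, 33.0 and 26.2 CPM in control mice 42, 83 and 90 and 13.2, 14.4 and 13.4 CPM in knockout mice 49, 82 and 88. The highest knockout mouse was thus well under the lowest control mouse (log2 fold change -1.07, SE 0.18; adjusted p = 0.2 in edgeR and 4.01e-04 in DESeq2). Mcm5 had 18.1, 18.1 and 12.4 CPM in control and 7.15, 7.27 and 4.40 CPM in knockout mice (-1.37, SE 0.28; adjusted p = 0.227 in edgeR and 0.00247 in DESeq2). Mcm3 had 15.3, 19.7 and 21.8 against 7.98, 8.69 and 8.86 CPM (-1.15, SE 0.21; 0.227 and 0.00147). In both genes the order of the mice within a genotype differed while the genotypes stayed apart: mouse 90 was the lowest control in Mcm5 and the highest in Mcm3. Mcm2 had 20.9, 21.6 and 16.6 CPM in control and 11.4, 8.02 and 7.64 CPM in knockout mice (-1.13, SE 0.23; 0.227 and 0.00464). Mcm4 had 13.6, 15.7 and 12.5 against 7.92, 6.22 and 7.93 CPM (-0.92, SE 0.22; 0.268 and 0.0218). These subunits assemble into 1 ring with Mcm7, and their transcripts stood lower to a similar extent.

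Mcm7 stood out from its partners. It had 29.7, 27.0 and 24.9 CPM in control mice and 24.5, 18.5 and 20.03 CPM in knockout mice, 77.2% of the control level (log2 fold change -0.37, SE 0.18; adjusted p = 0.474 in edgeR and 0.471 in DESeq2). The groups were separate by a narrow margin, mouse 49 lying just under control mouse 90. The log2 ratio of Mcm7 to the mean of Mcm2 to Mcm6 was 0.69, 0.37 and 0.55 in control mice and 1.40, 1.12 and 1.33 in knockout mice. This ratio does not depend on library scaling, and its groups did not overlap (difference 0.75). Exact permutation, two-sided, gave p = 0.1, and 3 against 3 mice cannot go below that. Adjusted over 8 such ratios it was 0.2. The 8 ratios were chosen after the values were seen, so neither p can test whether a ratio differs. The groups overlapped for Gins2 to Gins1 (exact permutation p = 0.5) and Chaf1b to Chaf1a (0.3). They also overlapped for E2f8 to E2f1 (0.4) and Ccnd1 to Ccne1 (0.7). Of the exon bases annotated to Mcm7, 8.7% are shared with Cops6 and Ap4m1 on the opposite strand; the counting's strand setting is not given in the sources used here, and the part of such reads was not tested.

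**Figure D2:**
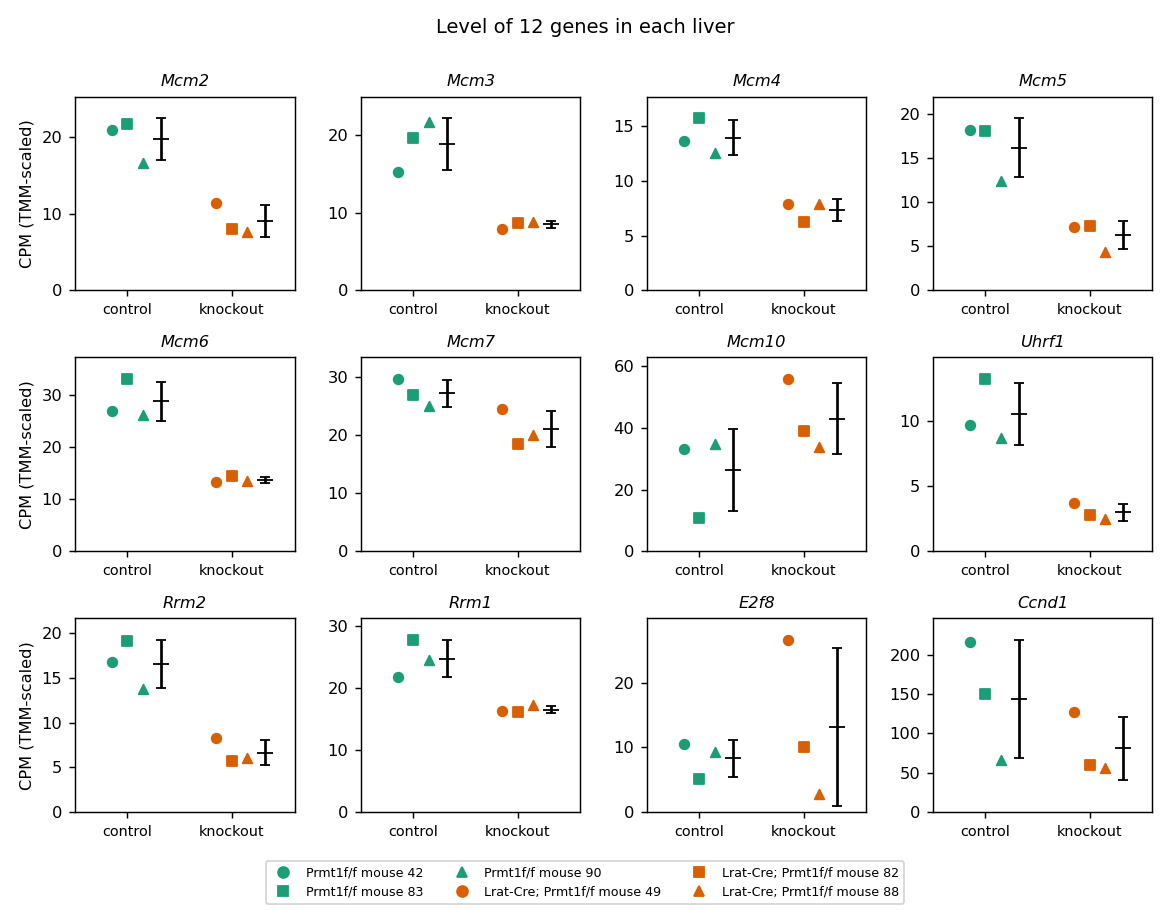
CPM of 12 genes in each mouse, with the mean and SD of 3 mice beside the points (green control, orange knockout; axes start at 0). Mcm2 to Mcm6, Uhrf1, Rrm2 and Rrm1 separate the genotypes, Mcm7 only narrowly, and Mcm10, E2f8 and Ccnd1 overlap.

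Of the 4 helicase activators only Gins2 had separate groups, with the knockout lower (7.95% of all genes did). Mcm10, a scaffold that helps the loaded helicase to fire, ran against the other genes, with 33.2, 10.98 and 34.8 CPM in control mice 42, 83 and 90 and 55.9, 39.2 and 33.9 CPM in knockout mice 49, 82 and 88. Groups overlapped, control mouse 83 being far under the other two control mice (log2 fold change 0.71, SE 0.40, edgeR adjusted p = 0.529), and without mouse 83 the value was 0.34. Relative to the mean of Mcm2 to Mcm6, Mcm10 was higher in all 3 knockout mice (log2 ratios 2.59, 2.20 and 2.09 against 0.85, -0.93 and 1.03). The lower levels of Mcm2 to Mcm6 add to this difference. Exact permutation gave p = 0.1, the smallest possible, and 0.2 adjusted over the 8 ratios. As the ratios were chosen after the values were seen, neither p can test whether this one differs. Gins2, a subunit of the GINS complex, had 3.00, 3.71 and 2.62 CPM in control and 2.51, 1.20 and 0.937 CPM in knockout mice (-0.998, SE 0.44, and -1.54 without mouse 49). Its groups were separate, with mouse 49 close to the controls, but 67.3% of its annotated exon bases are shared with Gse1 on the opposite strand. Gins1 of the same complex had 2.60, 4.47 and 7.69 against 2.51, 3.60 and 2.81 CPM, overlapping groups in which control mouse 90 had 2.96 times the level of control mouse 42 (-0.72, SE 0.42, and -0.31 without mouse 90). Cdc45, the third component of the active helicase, averaged 3.59 ± 0.903 CPM in control livers and 2.51 ± 0.803 CPM in knockout livers, also overlapping (-0.51, SE 0.37, with -0.29 without mouse 42 and -0.80 without mouse 49).

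The subunits of the clamp loader differed unequally. Rfc4 had 4.80, 5.44 and 5.89 CPM in control mice and 3.80, 2.70 and 1.51 CPM in knockout mice (log2 fold change -1.003, SE 0.37, edgeR adjusted p = 0.384). Rfc3 had 10.5, 10.8 and 14.0 against 9.46, 6.44 and 4.61 CPM (-0.78, SE 0.30), and Rfc5 8.82 ± 0.486 against 6.22 ± 0.888 CPM (-0.50, SE 0.23). These 3 small subunits were lower in every knockout mouse than in every control mouse. Rfc2, a subunit of the same loader, averaged 27.6 ± 2.76 CPM in control livers and 26.2 ± 3.81 CPM in knockout livers, and its interval reached from -0.49 to 0.34 (-0.08, SE 0.18; -0.19 without mouse 49 to -0.0025 without mouse 42). Pcna, the clamp that tethers the polymerases to DNA, had 23.5, 35.3 and 45.2 CPM in control and 26.3, 27.2 and 21.5 CPM in knockout mice (-0.47, SE 0.25, edgeR adjusted p = 0.505). Knockout mice 49 and 82 lay above control mouse 42, so its groups overlapped; without mouse 90 the value was -0.28 and without mouse 42 it was -0.68. Pcna and Tyms have annotated pseudogenes (Pcna-ps1, Pcna-ps2 and Tyms-ps), with which reads may be shared.

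None of the polymerase genes passed the adjusted threshold in edgeR, where 0% of all genes did. Pole, the catalytic subunit of the leading-strand polymerase, had 7.47, 9.30 and 6.95 CPM in control and 5.79, 4.27 and 4.97 CPM in knockout mice (log2 fold change -0.66, SE 0.26, edgeR adjusted p = 0.415). Pola1, the catalytic subunit of the polymerase that starts strands, had 7.47, 9.10 and 7.20 against 5.47, 6.07 and 5.04 CPM (-0.52, SE 0.24). Neither gene's groups overlapped. Prim1, the primase subunit of the same complex, had 8.20, 8.23 and 7.77 CPM in control and 9.27, 3.15 and 5.04 CPM in knockout mice (-0.47, SE 0.37). Controls agreed closely for Prim1 while the knockout mice ranged 2.95-fold with mouse 49 the highest of all, and the value was -0.97 without mouse 49 and -0.19 without mouse 82. Lig1, the ligase that seals Okazaki fragments, had 11.3, 12.8 and 15.9 against 7.02, 8.69 and 7.93 CPM, with separate groups (-0.76, SE 0.22, edgeR adjusted p = 0.323). Fen1, the nuclease that trims their ends, had 9.53, 13.2 and 14.1 against 8.31, 6.89 and 4.40 CPM (-0.90, SE 0.29); its groups were separate too, and 84.2% of its annotated exon bases are shared with genes on the opposite strand.

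Of the nucleotide supply genes, Rrm2 differed most. Ribonucleotide reductase makes deoxyribonucleotides, and Rrm2 encodes its S-phase subunit. Rrm2 had 16.8, 19.1 and 13.7 CPM in control mice 42, 83 and 90 and 8.24, 5.70 and 6.05 CPM in knockout mice 49, 82 and 88. All knockout mice lay under all controls, at 40.3% of the control mean (log2 fold change -1.31, SE 0.24; adjusted p = 0.227 in edgeR and 9.18e-04 in DESeq2). Rrm1, the large subunit, had 21.9, 27.8 and 24.6 against 16.3, 16.2 and 17.2 CPM, separate groups with a smaller difference (-0.58, SE 0.18; 0.325 and 0.137). The log2 ratio of Rrm2 to Rrm1 was -0.38, -0.54 and -0.84 in control and -0.98, -1.51 and -1.51 in knockout mice, again without overlap (difference -0.75). Exact permutation gave p = 0.1, and 0.2 adjusted over the 8 ratios. This ratio too was chosen after the values were seen, so neither p can test it. Tyms, thymidylate synthase, had 10.3, 10.2 and 13.5 against 11.6, 6.67 and 6.34 CPM, overlapping through mouse 49 (-0.46, SE 0.29, and -0.79 without that mouse).

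Uhrf1, which reads hemimethylated DNA behind the fork and recruits the maintenance methyltransferase Dnmt1, had the largest fold change of the 36 genes. It had 9.67, 13.2 and 8.67 CPM in control mice and 3.73, 2.77 and 2.45 CPM in knockout mice. Every knockout mouse was under the lowest control mouse, and the knockout mean was 28.4% of the control mean (log2 fold change -1.81, 95% interval -2.48 to -1.15; adjusted p = 0.183 in edgeR, the smallest of the 36, and 5.08e-05 in DESeq2). Dnmt1 itself had 26.9, 31.97 and 19.8 CPM in control and 25.8, 21.4 and 20.9 CPM in knockout mice (-0.21, SE 0.21), and its value was -0.040 without mouse 83 and -0.42 without mouse 90. Its groups overlapped, all 3 knockout mice lying above control mouse 90. The log2 ratio of Uhrf1 to Dnmt1 was -1.47, -1.27 and -1.19 in control and -2.79, -2.95 and -3.09 in knockout mice (difference -1.63). Exact permutation gave p = 0.1, and 0.2 adjusted over the 8 ratios. Neither p can test this ratio, which was also chosen after the values were seen. Chaf1a and Chaf1b encode the chromatin assembly factor that puts histones onto new DNA. Chaf1b had 4.73, 6.10 and 5.81 against 3.48, 2.10 and 3.75 CPM, with separate groups (-0.83, SE 0.32). Chaf1a had 8.33, 9.10 and 3.35 against 8.63, 4.35 and 4.90 CPM; the groups overlapped (-0.22, SE 0.42), the value ran from -0.59 without mouse 49 to 0.024 without mouse 83, and 52.5% of its exon bases are shared with Ubxn6 on the opposite strand.

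Of the 5 E2F and cyclin genes, E2f1 and Ccne1 had separate groups, with the knockout lower (7.95% of all genes did). E2f1, an activator of replication genes, had 7.20, 11.1 and 8.42 CPM in control and 7.02, 5.17 and 4.04 CPM in knockout mice (log2 fold change -0.72, SE 0.30, edgeR adjusted p = 0.431), the groups parted by little. E2f8, a repressor of the same family, had 10.5, 5.13 and 9.24 CPM in control and 26.6, 10.04 and 2.81 CPM in knockout mice. Knockout mice 49 and 88 were the highest and the lowest of the 6, a ratio of 9.46, and the positive fold change (0.67, SE 0.65) rested on mouse 49: without it the value was -0.36, and in the 4 mice numbered over 80 it was -0.15. Ccnd1, cyclin D1, which links growth factor signals to the cycle, had 215, 149.9 and 66.1 CPM in control and 127, 59.5 and 56.6 CPM in knockout mice (-0.83, SE 0.45, edgeR adjusted p = 0.519). Its groups overlapped, mouse 42 being the highest and knockout mouse 49 standing above control mouse 90; the value was -1.31 without mouse 49 and -0.41 without mouse 42. Ccne1, a cyclin of the G1/S transition, had 5.27, 6.76 and 5.81 against 4.57, 4.65 and 4.61 CPM, separate but close (-0.37, SE 0.25), and its relative Ccne2 had 4.72 ± 1.87 against 3.72 ± 0.565 CPM, overlapping (-0.35, SE 0.37, with -0.11 without mouse 42 and -0.67 without mouse 90).

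**Figure D3:**
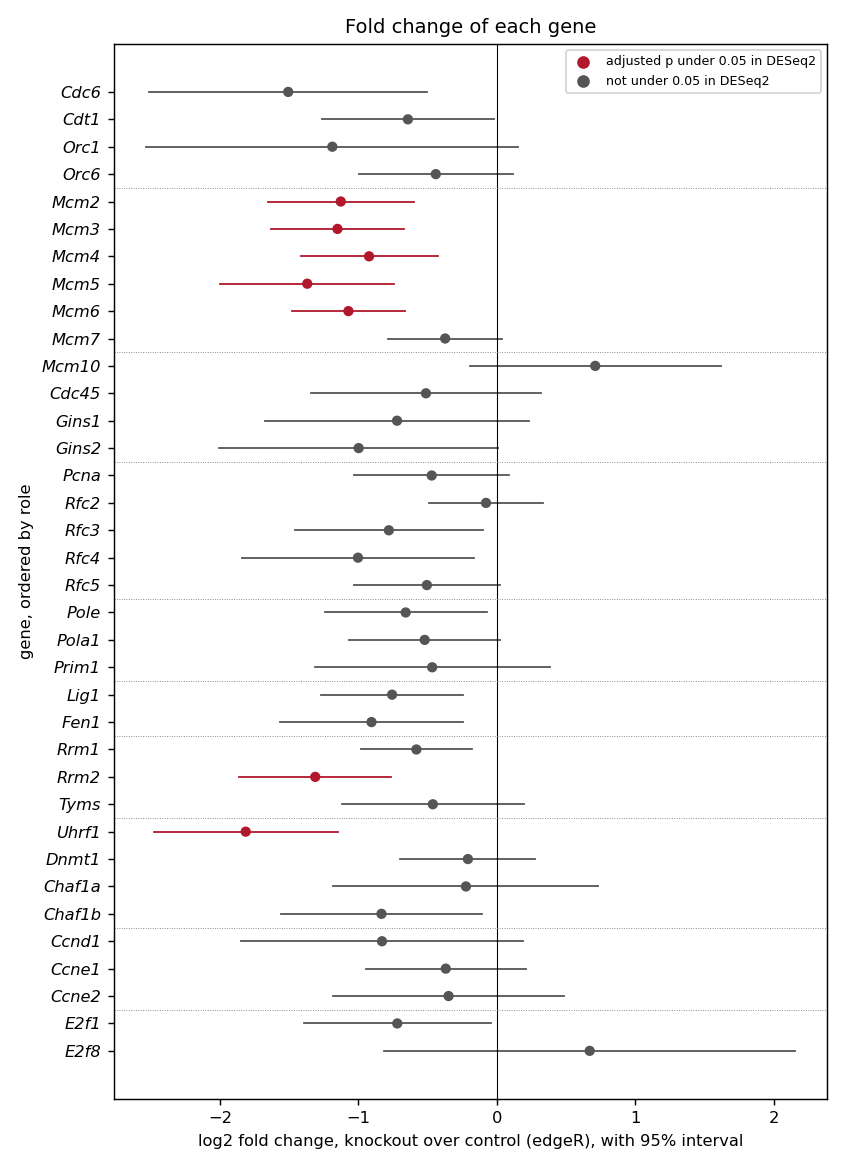
Log2 fold change of each of the 36 genes with its 95% interval (edgeR), ordered by role, in red where DESeq2 gave an adjusted p under 0.05. The interval lies under 0 for 17 genes and holds 0 for 19, and Uhrf1 lies lowest at -1.81. Of all genes tested, 5.95% were lower at an unadjusted p under 0.05 in edgeR. None of the 36 passed after adjustment in edgeR.

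Set per length, the 36 genes spanned a wide range. In control livers the level per kilobase of annotated exon ran from 0.278 CPM (Orc1) through a median of 2.83 to 30.5 CPM (Ccnd1). Pcna followed Ccnd1 with 14.5 CPM per kilobase, ahead of Mcm6 (6.15), Mcm7 (6.14) and Rrm2 (5.97), whose order is within the spread between mice. In knockout livers Ccnd1 (17.2) and Pcna (10.4) again led on this scale, while Rrm2 was at 2.40 and Mcm6 at 2.93, under Mcm10 (5.59) and Mcm7 (4.74). Exon bases shared with a gene on the opposite strand were annotated for 15 of the 36 genes. Of these, 9 had separate groups with the knockout lower, and for the other 21 genes that count was 14 (7.95% of all genes had this arrangement). The part of opposite-strand reads in these counts was not tested.

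Genes of the same pathways outside the 36 were taken from wider lists. These lists, with those of CDK inhibitors and mitosis genes below, were chosen with earlier results of these data known. They are therefore no independent check of the 36 genes. None of their genes passed the adjusted threshold in edgeR, where 0% of all genes did. Of 51 other replication genes (further helicase, polymerase, checkpoint and histone chaperone genes) 48 were tested, of which 39 were negative, and the median was -0.42. In this list 19 had separate groups with the knockout lower (39.6%, against 7.95% of all genes) and 11 had an unadjusted p under 0.05 in that direction (22.9%, against 5.95%). In edgeR 0 passed the adjusted threshold, and in DESeq2 1 did, where 0.936% of all genes were called lower. That gene was Prim2, the partner of Prim1 in primase, with 4.93, 5.29 and 6.46 CPM in control and 2.58, 2.32 and 2.59 CPM in knockout mice (log2 fold change -1.15, SE 0.28; adjusted p = 0.288 in edgeR and 0.0336 in DESeq2). Mtbp (-1.07), which acts in origin firing, and Clspn (-1.59), a checkpoint mediator, had the next smallest p. Of 26 other G1/S regulators tested 17 were negative (65.4%, against 52.7% of all genes), 7 had separate lower groups (26.9%, against 7.95%) and 1 had separate higher groups (8.94% of all genes). Their median of -0.13 was -0.053 without mouse 42, -0.042 without mouse 82 and -0.23 without mouse 90. Cdk4, the kinase of cyclin D, had 52.4, 62.3 and 73.5 CPM in control and 39.7, 42.6 and 41.6 CPM in knockout mice (-0.60, SE 0.18, edgeR adjusted p = 0.323). Tfdp2, a binding partner of E2F factors, was at 20.7 ± 3.04 against 33.1 ± 8.88 CPM with overlapping groups (0.67, SE 0.24), and E2f2, an activator, at 4.21 ± 1.15 against 2.15 ± 0.503 CPM (-0.97, SE 0.35). Myc, which drives growth and entry into the cycle, averaged 22.1 ± 5.99 CPM in control livers and 22.6 ± 6.44 CPM in knockout livers, with an interval from -0.58 to 0.65 around a fold change of 0.03.

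CDK inhibitors hold the G1/S kinases in check. Of 7 tested, 5 were negative (71.4%, against 52.7% of all genes), and the median was -0.46, or -0.28 without mouse 82. Cdkn1a, which encodes the inhibitor p21, had 238, 173 and 169.9 CPM in control and 264, 86.2 and 71.3 CPM in knockout mice, the highest and the lowest mice both being knockouts (log2 fold change -0.46, SE 0.46). Cdkn2b, an inhibitor of cyclin D kinases, had 2.40, 5.79 and 2.21 against 1.03, 0.749 and 1.08 CPM, with separate groups (-1.86, SE 0.49; adjusted p = 0.305 in edgeR and 0.044 in DESeq2). Cdkn2c (-0.48) and Cdkn2a (-0.94) overlapped between genotypes.

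Mitosis genes had a negative fold change in all 19 tested (52.7% of all genes did), with a median of -1.19, and 9 had separate lower groups (47.4%, against 7.95%). In edgeR 0 passed the adjusted threshold (0% of all genes did), and in DESeq2 2 did (0.936% of all genes were called lower). Top2a, the topoisomerase that untangles replicated DNA, had 14.9, 19.5 and 12.1 CPM in control and 8.50, 4.42 and 1.95 CPM in knockout mice (log2 fold change -1.64, SE 0.46; adjusted p = 0.323 in edgeR and 0.0341 in DESeq2). Mki67, the proliferation marker, had 20.9, 28.3 and 17.7 against 14.2, 6.59 and 4.47 CPM (-1.40, SE 0.40; 0.323 and 0.0485), and Nusap1, a spindle gene, was at -1.21. In the mitosis list the knockout mice spread much further than in the helicase genes. Its mean lay 0.26 log2 under the control mean in mouse 49, just above control mouse 90 (-0.31), but at -1.39 and -1.82 in mice 82 and 88. For Mcm2 to Mcm7 the same mice were at -0.84, -0.997 and -1.06. In the 9 genes with separate groups, among them Top2a, Mki67 and Nusap1, mouse 49 lay under every control, as separate groups require. In the other 10 tested genes of the list the groups overlapped. Without mouse 49 the median of the mitosis list was -1.95, and that of the 36 genes was -0.83.

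**Figure D4:**
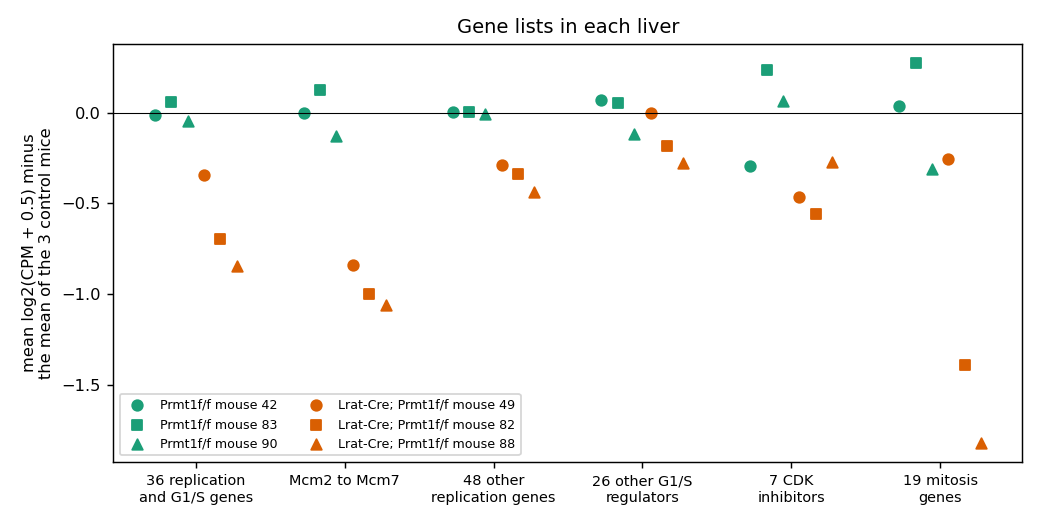
Mean log2(CPM + 0.5) of 6 gene lists in each mouse minus the mean of the 3 control mice (1 point per mouse; green control, orange knockout). Knockout mouse 49 (circle) lies at -0.84 in Mcm2 to Mcm7 and at -0.26 in the mitosis genes, where mice 82 and 88 are at -1.39 and -1.82.

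Markers of several cell types differed between the same mice, and their part in the replication result was not tested. The summed level of 10 stellate cell markers was 1336 to 1640 CPM in control and 442 to 975 CPM in knockout mice; 6 of the 10 had separate lower groups (7.95% of all genes did), and all 10 had counts in every mouse. Mouse 49 had the lowest stellate sum, and mouse 88 had the lowest mean of the 36 genes. Of 12 lymphocyte markers 11 were in the table and all 11 had counts in every mouse; their sum was 34.5 to 75.9 CPM in control and 31.3 to 38.8 CPM in knockout mice, and 4 of 10 tested had separate lower groups. The 7 neutrophil markers summed to 18.2 to 81.96 against 11.2 to 17.5 CPM, 5 of them with counts in every mouse and 3 of 5 tested with separate lower groups. Bile duct markers overlapped in their sum, at 656 to 1522 CPM in control and 368 to 877 CPM in knockout mice, 9 of 10 having counts in every mouse and 2 of 9 tested separate lower groups. Control mouse 42 had lymphocyte, neutrophil and bile duct sums near those of the knockout mice (34.5, 18.2 and 656 CPM). Its mean of the 36 genes was at -0.01, level with the other controls. Such values of single mice do not test a part of these cell types. Sums of the 10 hepatocyte markers (66665 to 104928 against 80782 to 95861 CPM), the 10 endothelial markers (378 to 523 against 300.2 to 473 CPM) and the 10 macrophage markers (401 to 1107 against 501 to 693 CPM) overlapped, each marker having counts in all 6 mice. Separate higher groups were found for 2 of the 10 hepatocyte markers and 0 lower (8.94% of all genes were higher). Separate lower groups were found for 1 endothelial marker, and separate groups for 0 macrophage markers. Of the 6 plasma cell markers 5 were in the table, 4 had counts in every mouse, Tnfrsf17 had 0 counts in all, and the sum was 513 to 666 against 615 to 638 CPM. The 4 were Jchain, Sdc1, Xbp1 and Mzb1, and bulk RNA does not show which cells their counts came from. The abundance of the hepatocyte markers, among them Alb, Apoa1 and Ttr, matched the labelled tissue.

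**Figure D5:**
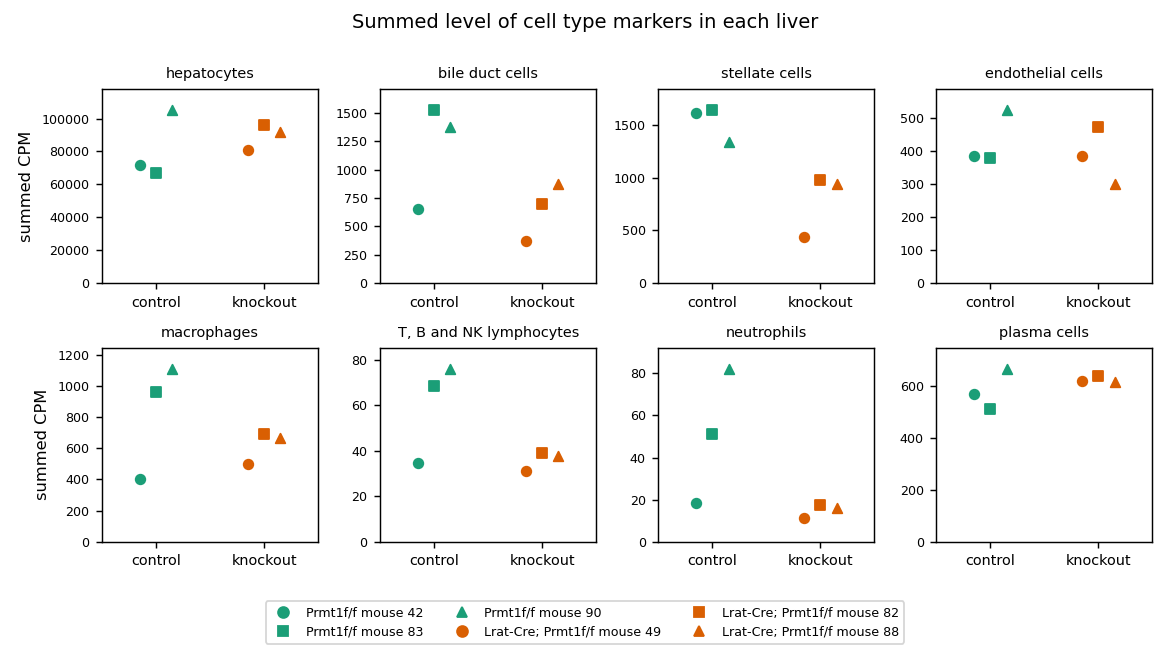
Summed CPM of 8 marker lists in each mouse (1 point per mouse; green control, orange knockout; axes start at 0). Stellate markers separate the genotypes and neutrophil markers narrowly do, while the other sums overlap; control mouse 42 (green circle) lies near the knockout mice in lymphocyte, neutrophil and bile duct markers.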

How the data were processed

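Whole liver RNA of 6 mice was counted per gene. The authors deposited raw counts for all mice in a single table; the tools listed, per the submitters' processing notes, are Trimmomatic, FastQC, STAR and HTSeq with build mm10 and no versions. Annotation and strand setting: not given in the sources used here. Libraries held 13303884 to 16462278 counts. Columns were assigned to mice, and mice to genotypes, by the numbers and genotypes in the sample titles. No number occurs in both genotypes, and mice were treated as unpaired.

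Counts were filtered with filterByExpr (13153 genes kept), normalised with TMM factors and fitted in edgeR 4.0.16 under R 4.3.3 (quasi-likelihood test, genotype as the single term), with Benjamini-Hochberg adjustment over all genes at 0.05. DESeq2 1.42.0 and limma 3.58.1 (voom) were alternatives, beside other scalings, other filters and fits that omit 1 mouse. The edgeR test was also run on counts simulated from its own fit of these data. Such a run cannot show whether the fitted model holds for them. CPM are counts over the TMM-scaled library; list means use log2(CPM + 0.5). Exon lengths and overlaps come from GENCODE M21 on GRCm38, the assembly of mm10. The titles number separate mice, so p-values measure the spread between mice. Genes named are the 36, Prmt1, the 3 with the smallest p of each wider list, and Mki67, Top2a, Myc and Cdkn1a; the genes, lists and ratios were chosen with earlier results of these data known.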

Additional observations from a re-analysis of the deposited data

How the results depend on the processing

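No paired analysis was possible because the mouse numbers are not shared between the genotypes. Scaling by RLE, a filter of 1 CPM in 3 samples and limma-voom were checked on a part of the results. The counts past the threshold, over all genes and among the 36, and the count of negative genes stayed within 1.5 times. The medians of the 36 genes and of the wider lists stayed within the spread between mice. Orc1 was not tested under the 1 CPM filter. Counts of separate groups and the medians by promoter word were not recomputed under these settings. The number of genes past the threshold was 0 in edgeR, 4 without a low-count filter, 238 in DESeq2, 560 in limma-voom with library weights, 6 with a term for mouse number, 3 at an adjusted p of 0.10 and 0 to 13 with a mouse left out; at an unadjusted p under 0.05 edgeR gave 1448, and 775 (without mouse 82) to 2519 (without mouse 42) with a mouse left out. Among the 36 genes these counts were 0 in edgeR, 7 in DESeq2, 10 with library weights and 0 with any mouse left out. Their median of -0.69 was -0.88 both with library weights and in the 4 mice numbered over 80, and -0.83 to -0.57 with a mouse left out; 33 to 35 were negative throughout. With total counts alone as the scale, which shifted the median of all genes from -0.02 to -0.17, the median of the other replication genes was -0.55 and that of the other G1/S regulators -0.28. Library weights gave -0.33 for other replication genes and -1.97 for mitosis genes, and the 4 mice over 80 gave -1.99 for mitosis genes. With a mouse left out the medians ran from -0.44 to -0.34 (other replication genes) and from -1.95 to -0.81 (mitosis genes, the latter without mouse 88). Prmt1 passed only with library weights (-0.74, adjusted p = 0.0383 against 0.106 to 0.839 elsewhere). Signs turned for E2f8 (-0.15 in the 4 mice over 80, and -0.36 without mouse 49 to 1.13 without mouse 88), for Chaf1a (-0.59 without mouse 49 to 0.024 without mouse 83) and for the log2 ratio of Ccnd1 to Ccne1 (-0.41 with all mice, 0.040 without mouse 42); the cause was not tested. Counting error limits Orc1 (62 counts over 6 mice) and Cdc6 (194).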
